A study of Homo sapiens with 18 samples.

Results

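CDR1 and LINC00632 are annotated on opposite strands of 1 locus on the human X chromosome, and the circular RNA ciRS-7 (also called CDR1as) is made from the LINC00632 strand. The locus was taken up because CDR1 had higher values in extracellular vesicles (EVs) of knockout cells than in wild-type EVs. It holds 2 of the 57865 genes and 7 of the 202941 matched transcripts of the deposited table, 1 of CDR1 and 6 of LINC00632. RNA was sequenced from HEK293T, an established cell line of human embryonic kidney origin, and from EVs that its cells released. The 6 groups were EVs and cells of the wild type, of ATG7-/- cells (clone F2) and of ATG12-/- cells (clone D9), with 3 biological replicates each, and all were kept without serum for 24 h. Each knockout is thus 1 clone, and genotype and clone cannot be told apart. The values are TPM, in which every library's transcripts share the same total after correction for their length, so levels of different genes can be compared on this scale. TPM keep no sequencing depth, and the counting error behind each value is unknown.

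As background, ciRS-7 is a closed loop without free ends, abundant in neurons, and known for a dense row of binding sites for the microRNA miR-7. A microRNA finds its targets mainly through its seed, the bases 2 to 8 from its 5′ end, and bound Argonaute proteins then repress the target. ciRS-7 also holds a nearly complementary site for miR-671, at which Argonaute 2 can cut it. CDR1 is named for an antigen recognised in paraneoplastic cerebellar degeneration, and LINC00632 is the long noncoding RNA from whose precursor the circle is spliced. EVs are membrane-bound particles that cells release. ATG7 activates, and ATG12 helps to transfer, the proteins of the LC3 family that become attached to membrane lipid.

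The sequences that define the locus are the seeds and their matches. The mature miRNAs, from RefSeq's table for GRCh38.p14, are given with seed bases in capitals.
hsa-miR-7-5p: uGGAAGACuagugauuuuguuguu
hsa-miR-671-5p: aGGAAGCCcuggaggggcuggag
The next pair shows the same interval, chrX:140784247-140784366 on GRCh38, read 5′ to 3′ on each strand from the GENCODE 29 transcripts. Capitals mark the miR-7 seed match GTCTTCC on the LINC00632 strand and its complement GGAAGAC on the CDR1 strand. This interval is the first 120 bases of CDR1 and shows the repeat from which the site row is built.
LINC00632-206: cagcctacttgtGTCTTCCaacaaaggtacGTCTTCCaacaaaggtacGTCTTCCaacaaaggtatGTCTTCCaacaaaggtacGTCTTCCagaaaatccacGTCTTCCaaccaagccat
CDR1: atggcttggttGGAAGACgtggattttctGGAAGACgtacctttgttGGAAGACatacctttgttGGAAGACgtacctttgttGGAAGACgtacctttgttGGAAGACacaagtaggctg
The site for miR-671-5p lies on the plus strand at chrX:140784460-140784482, and capitals mark its 19 bases, of 23, that are complementary to the miRNA.
miR-671-5p site: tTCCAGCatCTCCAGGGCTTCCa

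LINC00632 spans chromosome X from 140709562 to 140793215 on the plus strand, and CDR1 is a single exon from 140783578 to 140784366 on the minus strand. LINC00632-206 has its exons at 140733878 to 140733964 and 140783175 to 140784965. The whole CDR1 transcript (789 nt) lies opposite the second of these exons, and 42.0% of LINC00632-206 (1878 nt) lies opposite CDR1. The other 5 LINC00632 transcripts of the table have no exon over CDR1. GENCODE 29 has 25 LINC00632 transcripts, of which 5 have an exon over CDR1, and the deposited table held 6 and 1 of these. The table's versions of CDR1 and LINC00632-206 are older than those of that release, so coordinates, lengths and letters are those of the newer models. The circle itself has no entry of its own in the table, and no value is given for it.

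Both strands carry the repeat, and on the LINC00632 strand the last match starts 1460 nt into the second exon. LINC00632-206 holds GTCTTCC 67 times, 59 of them followed by A, with 38 inside the CDR1 interval and 29 outside it. CDR1 holds GGAAGAC 38 times, and neither transcript holds the other one's motif. Starts of neighbouring matches lay 17 to 55 nt apart, with a median of 18. Counted over the whole miRNA with its seed, 9 to 15 of the 24 bases of miR-7-5p (median 11) were complementary at a match without gaps. Among 12077 other GENCODE transcripts within 10% of the length of LINC00632-206, 15.3% held GTCTTCC on the strand they are read from, and at most 15 times. Among the 20451 within 10% of the length of CDR1, 9.98% held GGAAGAC, at most 3 times. These matches describe letters and were not measured as binding.

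**Figure D1:**
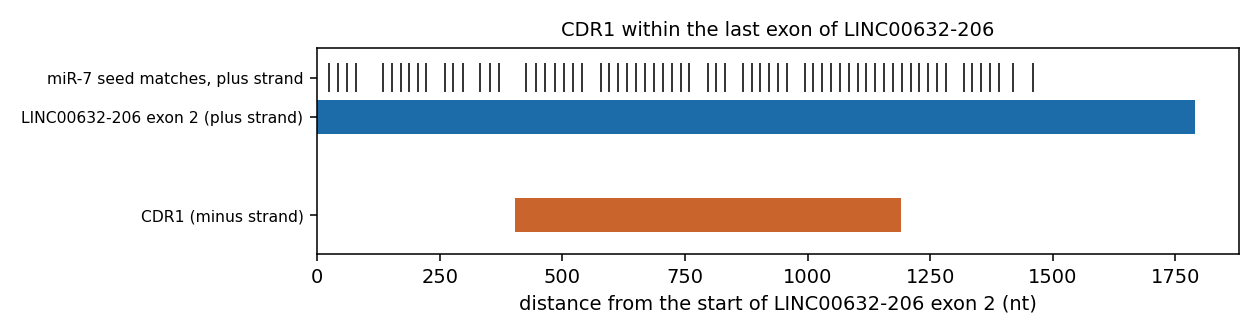
Map of the last exon of LINC00632-206 (blue, plus strand) and of CDR1 (orange, minus strand), with distance from the start of that exon in nt on the horizontal axis. Each black tick is 1 of the 67 matches to the miR-7 seed on the plus strand, and 38 of them lie over CDR1.

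Libraries of EVs and cells differed broadly, and the entries of the targeted genes did not pass as lower in their own knockouts. Between 13255 and 14716 genes had at least 1 TPM in an EV library, against 18464 to 20509 in a cell library. ATG7 ranged from 11.2 to 20.8 TPM in EVs and from 8.06 to 17.1 in cells, and its values in ATG7-/- overlapped the wild type in both. ATG12 had 0, 0.858 and 0 TPM in ATG12-/- EVs against 0.844, 9.54 and 22.6 in wild-type EVs, and 5.18 to 9.18 against 7.61 to 13.5 in cells. Neither passed limma's test, which does not show that they were unchanged. Of 5 HEK293T markers, NEFL and NEFM were present in all 18 libraries (means of 18.6 and 33.5 TPM in EVs, 3.45 and 5.38 in cells), and both were higher in EVs by limma's test. EYA1 was lower there (1.68 and 4.1 TPM), and ENO2 (13.6 and 10.9) and PAX2 (0.352 and 0.951, listed at 0 in 5 EV libraries) did not pass. Of 7 neuronal markers, 4 were tested between EVs and cells. TUBB3 was higher in EVs (4.53 and 0.758 TPM), RBFOX3 was lower (2.22 and 7.21), and SYP (9.48 and 5.93) and SNAP25 (0.302 and 0.325) did not pass. STMN2, ELAVL3 and ELAVL4 were listed at 0 in every EV library. Their values in cells are not given here, so this does not set EVs apart from cells. Over all genes tested, 7.66% passed as higher in EVs and 36.4% as lower.

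CDR1 was among the abundant RNAs of these EVs, and both knockouts had about the same level there. In wild-type EVs it had 379, 354 and 377 TPM (370 ± 13.8, SD, n = 3). The ATG7-/- EVs had 840, 856 and 767 TPM (821 ± 47.5), and the ATG12-/- EVs had 832, 727 and 753 TPM (770 ± 54.5). Every knockout EV library was above every wild-type one, by which CDR1 was picked, so these values are a description with no test. The means were 2.22 times the wild type in ATG7-/- EVs and 2.08 times in ATG12-/- EVs. On the scaled log2 scale of the fit the differences were 1.24 (SE 0.18) and 1.13 (SE 0.18). Of 17076 genes tested, 6.39% were higher without overlap in ATG7-/- EVs and 4.35% in ATG12-/- EVs. Both comparisons share the 3 wild-type EV libraries. By abundance CDR1 ranked 282 to 313 among the genes of wild-type EV libraries and 123 to 151 in knockout EVs.

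In cells the order of genotypes was another one. CDR1 had 169, 271 and 186 TPM in wild-type cells (208 ± 54.7, SD, n = 3), 175, 191 and 145 in ATG7-/- cells (170 ± 23.2), and 313, 279 and 249 in ATG12-/- cells (281 ± 31.8). Wild-type replicate 2 overlapped the ATG12-/- cells, and the other 2 wild-type libraries lay within the range of the ATG7-/- ones. ATG12-/- cells were above ATG7-/- cells in every library, as were 9.13% of the 22471 genes tested. From the highest group mean to the lowest, the order was ATG7-/- EVs, ATG12-/- EVs, wild-type EVs, ATG12-/- cells, wild-type cells and ATG7-/- cells. Of neighbours in this order, the knockout EV groups overlapped, ATG12-/- cells overlapped wild-type cells, and wild-type cells overlapped ATG7-/- cells. The step from knockout to wild-type EVs and that from wild-type EVs to ATG12-/- cells were free of overlap.

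**Figure D2:**
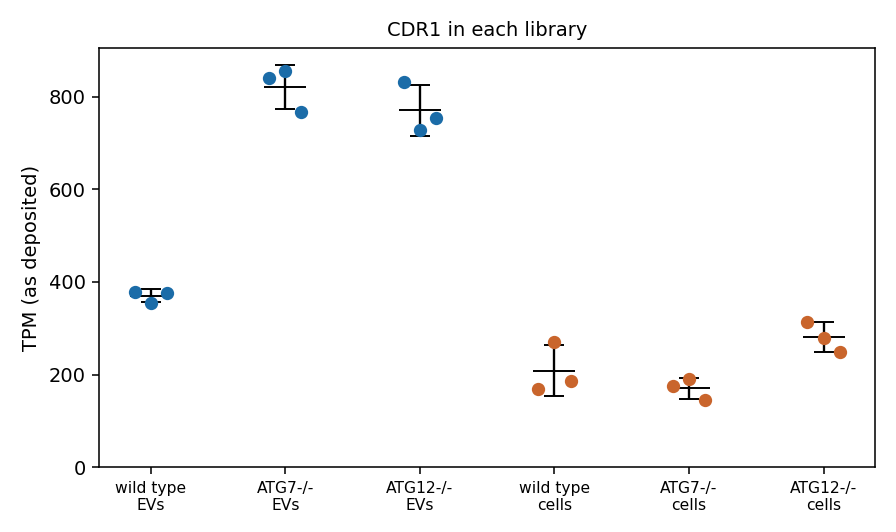
CDR1 in TPM as deposited (vertical axis) in the 6 groups, EVs in blue and cells in orange. Points are libraries, horizontal marks are means and bars are SDs (n = 3). The 6 knockout EV libraries lie between 727 and 856 TPM, the wild-type EVs between 354 and 379, and the 9 cell libraries between 145 and 313.

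None of the differences of CDR1 between cell groups passed the test across all genes. The cell libraries played no role in picking the gene, so these are tested. ATG7-/- cells differed from wild-type cells by -0.20 log2 units (SE 0.24, 95% interval -0.75 to 0.36, limma adjusted p = 0.734). For ATG12-/- cells the difference from wild type was 0.48 (SE 0.24, interval -0.07 to 1.04, limma adjusted p = 0.392). ATG12-/- cells exceeded ATG7-/- cells by 0.68 (SE 0.24, interval 0.13 to 1.24, limma adjusted p = 0.396). With 1 library left out at a time the ATG12-/- difference from wild type ran from 0.31 to 0.72, the highest without wild-type replicate 2, and passed in none of these fits. Between 0.134% and 0.2% of all genes passed in these 3 comparisons. Between the knockout EVs, CDR1 differed by -0.11 (ATG12-/- minus ATG7-/-, SE 0.18, interval -0.51 to 0.29). That value is a description, since the choice of the gene had used these libraries.

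LINC00632, the entry on the other strand, was above 0 in every library, at a lower level than CDR1. It did not follow the genotype in EVs. Wild-type EVs had 16.4, 41.2 and 54.7 TPM (37.5 ± 19.4, SD, n = 3), ATG7-/- EVs 39.1, 48.9 and 23.4 (37.1 ± 12.9), and ATG12-/- EVs 44.3, 45.4 and 29.6 (39.8 ± 8.8). The 3 groups overlapped fully, and the wild-type group had both the lowest and the highest library. The log2 differences from wild-type EVs were 0.18 and 0.29 (SE 0.53 each), a description since CDR1 was picked on these contrasts. Between ATG12-/- and ATG7-/- EVs the difference was 0.11 (SE 0.53, limma adjusted p = 0.994).

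Cells held less LINC00632 in every library. Wild-type cells had 5.76, 7.56 and 7.84 TPM (7.05 ± 1.13), ATG7-/- cells 6.76, 4.85 and 12.2 (7.93 ± 3.81), and ATG12-/- cells 9.87, 10.7 and 8.68 (9.76 ± 1.03). ATG12-/- cells lay above wild-type cells without overlap, as did 10.7% of genes, and ATG7-/- replicate 3 was the highest cell library. Neither knockout passed against wild-type cells (0.14, SE 0.32, limma adjusted p = 0.876 in ATG7-/-, and 0.45, SE 0.32, limma adjusted p = 0.548 in ATG12-/-), nor did one knockout against the other (0.31, SE 0.32, limma adjusted p = 0.787).

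LINC00632-206, the transcript whose exon covers CDR1, made up most of the gene in EVs but not in cells. It had 12.1, 26.5 and 52.8 TPM in wild-type EVs, 34.8, 46.3 and 18 in ATG7-/- EVs, and 34.7, 45.4 and 22.1 in ATG12-/- EVs. Cells had 0, 3.0 and 1.26 TPM in the wild type, 3.2, 2.27 and 3.02 in ATG7-/-, and 3.54, 4.75 and 4.36 in ATG12-/-. All 9 EV libraries were above all 9 cell libraries. Its share of the gene's TPM was 64.3% to 100% in EVs (median 78.2%) and 0 to 50.2% in cells (median 39.7%).

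LINC00632-201, which ends upstream of CDR1, showed no such split. Its TPM were 4.35, 2.46 and 1.95 in wild-type EVs, 4.34, 2.65 and 5.46 in ATG7-/- EVs, and 9.68, 0 and 7.54 in ATG12-/- EVs. In cells they were 5.76, 4.56 and 6.58 in the wild type, 3.56, 2.58 and 9.17 in ATG7-/-, and 3.98, 5.97 and 4.32 in ATG12-/-. EV and cell libraries overlapped. LINC00632-203 was above 0 only in wild-type EV replicate 2 (12.2 TPM) and LINC00632-205 only in ATG12-/- cell replicate 1 (2.35 TPM). LINC00632-202 and LINC00632-204 were listed at 0 in all 18 libraries.

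**Figure D3:**
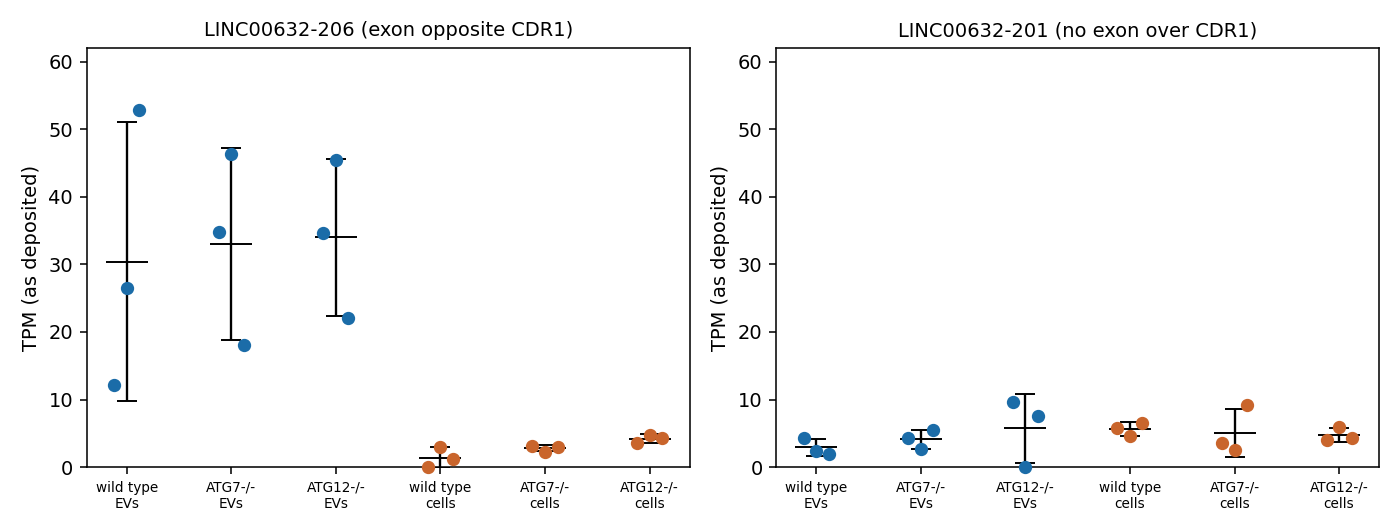
TPM as deposited of LINC00632-206 (left) and LINC00632-201 (right) in the 6 groups, on the same vertical scale. Points are libraries, horizontal marks are means and bars are SDs (n = 3). LINC00632-206 lies between 12.1 and 52.8 TPM in EVs and between 0 and 4.75 in cells, while LINC00632-201 overlaps between them.

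Set against cells over all genotypes, both entries of the locus were higher in EVs. CDR1 averaged 654 ± 217 TPM in EVs and 220 ± 59.1 in cells (SD, n = 9 each), and LINC00632 38.1 ± 12.5 and 8.25 ± 2.37, with no overlap for either. For CDR1 the log2 difference was 1.24 (SE 0.12), a description with no test, since the average contains the knockout EVs by which the gene was picked. For LINC00632 it was 1.77 (SE 0.26, interval 1.21 to 2.33, limma adjusted p = 0.000108). The 2 entries overlap, and how far reads of CDR1 share in the LINC00632 value was not tested. Of 24647 genes tested, 7.66% passed as higher in EVs and 36.4% as lower, and 1.95% were higher with no overlap. The median gene differed by -0.61 on the scaled values and by -0.471 on unscaled TPM. LINC00632 lay above 98.5% of the genes. In these bulk libraries, more EVs that carry an RNA and more of that RNA per EV cannot be told apart.

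By genotype, the EV to cell values of CDR1 rest in part on the knockout EVs by which it was picked, and are a description. Mean CDR1 TPM in EVs were 1.78 times those in cells for the wild type, 4.83 times for ATG7-/- and 2.75 times for ATG12-/-. For LINC00632 the ratios were 5.31, 4.68 and 4.08. On the scaled log2 scale the CDR1 differences were 0.36, 2.05 and 1.32, so wild type had the smallest. The ATG12-/- value minus the ATG7-/- value was -0.73 (SE 0.29). For LINC00632 the differences were 1.64, 1.91 and 1.76 in the order wild type, ATG7-/- and ATG12-/-, and whether the knockouts differed from wild type in this was not tested.

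**Figure D4:**
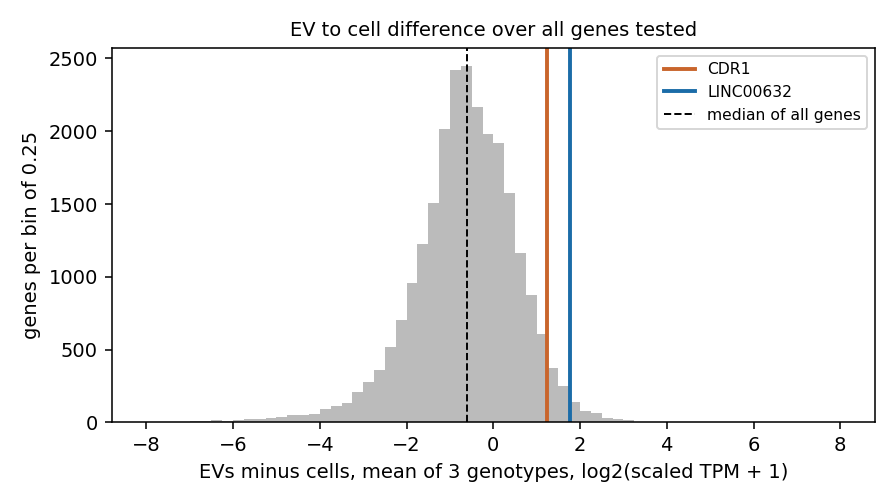
Number of genes (vertical axis) by log2 difference of scaled TPM + 1 between EVs and cells, averaged over the 3 genotypes (horizontal axis), for the 24647 genes tested. The dashed line is the median gene (-0.61), and CDR1 (orange, 1.24) and LINC00632 (blue, 1.77) lie in the right tail.

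By transcript, the excess of the LINC00632 entry lay in LINC00632-206. Fitted over all transcripts, LINC00632-206 was higher in EVs by 3.04 log2 units (SE 0.35, interval 2.29 to 3.79, limma adjusted p = 2.51e-05), where 5.23% of transcripts passed as higher. LINC00632-201 differed by -0.53 (SE 0.40, interval -1.39 to 0.33, limma adjusted p = 0.33). Mean LINC00632-206 TPM were 32.5 ± 13.9 in EVs and 2.82 ± 1.48 in cells (SD, n = 9 each), a ratio of 11.5. This transcript fit was added after the values were seen, and how far reads of CDR1 share in LINC00632-206 was not tested.

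CDR1 exceeded LINC00632 in every library. The log2 ratio of CDR1 + 1 to LINC00632 + 1 TPM was 4.44, 3.07 and 2.76 in wild-type EVs, 4.39, 4.10 and 4.98 in ATG7-/- EVs, and 4.20, 3.97 and 4.62 in ATG12-/- EVs. In cells it was 4.65, 4.99 and 4.40 in the wild type, 4.50, 5.03 and 3.47 in ATG7-/-, and 4.85, 4.58 and 4.69 in ATG12-/-. EVs and cells overlapped, and the lowest ratios were those of wild-type EV replicates 3 and 2. Averaged over genotypes, EVs minus cells was -0.51. This is a description with no test, since the ratio holds the CDR1 values of the knockout EVs by which the gene was picked. With 1 library left out at a time the difference ran from -0.68 to -0.40.

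Which strand the CDR1 values measure cannot be told from the table. The library kit keeps strand, but the strand setting used for quantification is not given in the sources used here, and the exons of CDR1 and LINC00632-206 overlap. LINC00632-206 took 2.29% to 12.3% of the pair's summed TPM in EVs (median 4.0%) and 0 to 2.04% in cells (median 1.18%), with CDR1 taking the rest. Other overlapping pairs, picked in an earlier look at these values, had the annotated opposite feature above a well-known mRNA. GAPDH, the glycolytic enzyme, took 3.55% to 6.17% of its pair with AC006064.4 in EVs and 1.78% to 3.27% in cells. The tubulin gene TUBA1B took 1.41% to 2.63% and 0.475% to 1.02%, and the ribosomal protein gene RPS3A 0.475% to 1.03% of its pair with SH3D19 in EVs and 0.266% to 0.588% in cells. TPT1, EEF1D and VIM also stayed below their opposite features, at most at 22.0% of the pair. In each of these 6 pairs the median share of the mRNA was higher in EVs than in cells, and so was that of LINC00632-206. Reads of CDR1 and reads of the LINC00632 strand, linear or circular, therefore cannot be told apart here, and a value named CDR1 is the value of that entry of the table. In the same way, values of the other genes named in this report, markers and list members included, are those of their entries. How far features on the opposite strand share in them was not tested.

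**Figure D5:**
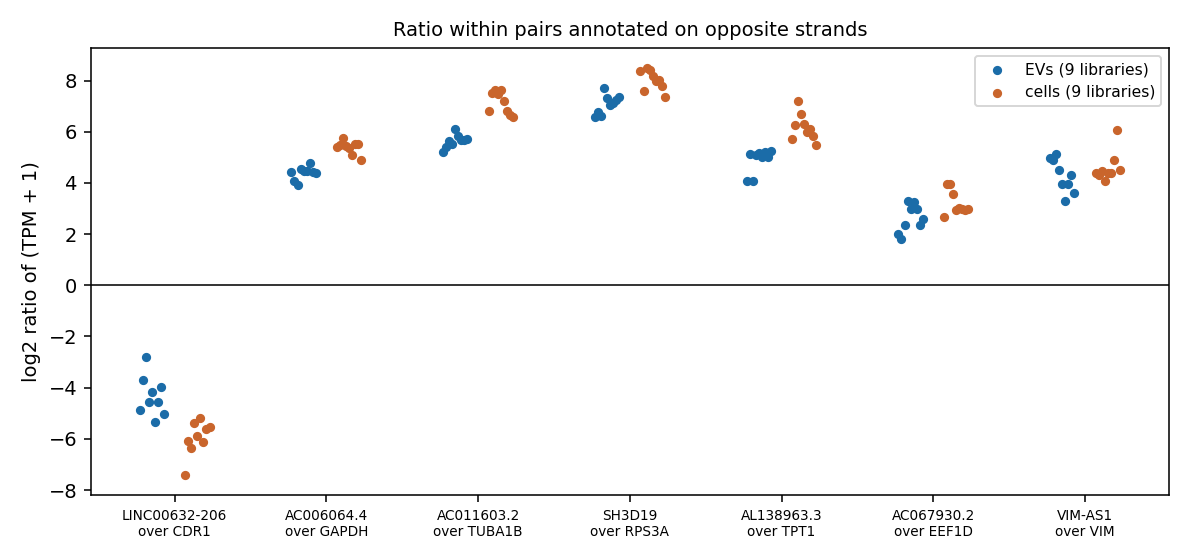
Log2 ratio of TPM + 1 within 7 pairs of overlapping features on opposite strands (vertical axis), 1 point for each of 9 EV (blue) and 9 cell (orange) libraries. LINC00632-206 lies below CDR1 in every library, and each feature opposite one of the 6 mRNAs lies above it in every library.

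The 6 mRNAs and the 6 features opposite them all passed as higher in EVs than in cells, with median differences of 2.34 and 1.11. Over all genes tested, 7.66% passed as higher and the median was -0.61. The pairs had been picked in an earlier look at these values, so this count is a description. Of the opposite features, 3 passed as higher and 1 as lower in ATG7-/- EVs against wild-type EVs, where 0.141% of all genes passed, and 2 as higher in ATG12-/- EVs, where 0.105% did. These contrasts are those on which CDR1 was picked, and the features had been picked for their high values, so the counts support nothing. Their part in the CDR1 values was not tested.

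CDR1 and LINC00632 were correlated over all libraries together and weakly within EVs or within cells. Pearson's r of log2 values was 0.77 over 18 libraries, 0.26 over the 9 EV libraries and 0.13 over the 9 cell libraries (Spearman's rho 0.71, 0.13 and 0.27). With LINC00632-206 it was 0.80, 0.31 and 0.34. These are descriptions, and the points share library composition. Among the 11249 genes averaging 5 TPM or more, those most like CDR1 over the 18 libraries were LINC01623 (r = 0.939), LINC01709 (0.936), RANGAP1 and SH3D19 (0.93 each), ATF4 (0.921), APH1A (0.92), UXT-AS1 (0.917) and B2M (0.914). Over the 9 EV libraries, among 9873 genes, they were SH3D19 (0.986), LHFPL3-AS2 (0.982), AC007383.3 (0.981), AD000091.1 (0.972), AC021224.1 (0.967), AC007666.1 (0.96), CALM3 (0.958) and RAPH1 (0.957). SH3D19, the feature opposite RPS3A, stood in both lists and had means of 23700, 41300 and 42900 TPM in wild-type, ATG7-/- and ATG12-/- EVs. Both lists were ranked on likeness to the CDR1 values by which that gene was picked, so these means are no separate support. Those most like LINC00632 over the 18 libraries included RFC4 (0.928), PKP4 (0.913) and the ribosomal protein genes RPL23 (0.915) and RPS15A (0.912).

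Little else was seen around the locus. Of 14 other genes annotated within 500 kb of CDR1, 13 were in the table and 5 were above 0 in any library. LDOC1 was above 0 in 14 libraries, at up to 15.4 TPM in EVs and 2.67 in cells. SOX3, a transcription factor gene, reached 1.57 TPM in EVs, and SPANXC 4.53 TPM in cells. AC234778.2 and RBMX2P2 were above 0 in 3 and 2 libraries. None of these 5 reached the lowest value of CDR1, 145 TPM in ATG7-/- cell replicate 3.

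The genes that make the 2 miRNAs gave few values. MIR7-1, MIR7-2, MIR7-3 and MIR671 were listed at 0 in all 18 libraries, which were prepared for large RNA. Of 8 loci and hosts, 4 were tested between EVs and cells, where 1 rose in EVs and 1 fell (background 7.66% and 36.4%). HNRNPK, whose intron holds MIR7-1, had 79.8 ± 22.6 TPM in EVs and 39.1 ± 13.0 in cells (SD, n = 9 each; 0.75, SE 0.19, limma adjusted p = 0.00524). OIP5-AS1, the long noncoding RNA called Cyrano whose miR-7 site is known to bring that miRNA to decay, had 28.5 ± 12.7 and 40.0 ± 9.01 TPM (-0.86, SE 0.30, limma adjusted p = 0.0285). CHPF2, which hosts MIR671, had 1.86 ± 2.64 and 2.39 ± 0.919 TPM and did not pass. The list's median was -0.55, against -0.61 over all genes tested.

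Of 13 genes of miRNA processing and silencing, 1 rose in EVs and 1 fell, with a median of 0.10 (all genes: 7.66% higher, 36.4% lower, median -0.61). AGO1, an Argonaute protein, had 23.0 ± 6.98 TPM in EVs and 4.49 ± 1.05 in cells (1.83, SE 0.21, limma adjusted p = 9.92e-06). Every EV library was above every cell library, as for 1.95% of all genes tested. AGO2, the Argonaute that cuts targets, had 21.3 ± 25.2 and 12.8 ± 12.6 TPM and did not pass. ZSWIM8, the ubiquitin ligase adaptor of target-directed miRNA decay, had 60.4 ± 43.8 and 77.8 ± 27.7 TPM (-0.99, SE 0.37, limma adjusted p = 0.0391). Its EV values spread from 5.67 to 144 TPM.

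Of 12 known miR-7 targets, 1 fell in EVs and none rose, with a median of 0.24, beside 7.66% higher, 36.4% lower and a median of -0.61 over all genes. UBE2A, a ubiquitin-conjugating enzyme, had 94.7 ± 14.6 TPM in EVs and 142 ± 30.7 in cells (-0.85, SE 0.13, limma adjusted p = 0.000166). PSME3, a proteasome activator, had 36.9 ± 10.6 and 28.6 ± 9.28 TPM and did not pass. In cells, 9 targets were tested and none passed in any of the 3 genotype comparisons, where 0.134% to 0.2% of genes did.

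Of 19 factors of circular RNA formation, export, binding and decay, 17 were tested between EVs and cells, where 3 rose and 3 fell, with a median of 0.34, beside 7.66% higher, 36.4% lower and a median of -0.61 over all genes. ILF2, of the NF90 complex, had 107 ± 28.8 TPM in EVs and 39.3 ± 15.4 in cells (1.19, SE 0.17, limma adjusted p = 7.74e-05). HNRNPL, a splicing regulator, and YTHDF2, a reader of methylated adenosine, rose by 0.90 and 1.49. Among those that fell, the stress granule protein G3BP2 and the export helicase DDX39B had differences of -1.13 and -0.83.

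DHX9, an RNA helicase that unwinds the paired repeats that favour circle formation, was the 1 factor that passed between cell groups. It had 36.7, 36.2 and 29 TPM in wild-type cells, 48.2, 56.9 and 56.7 in ATG7-/- cells, and 94.2, 100 and 115 in ATG12-/- cells. The ATG12-/- cells were above both other groups without overlap, as were 10.7% of genes against wild-type cells and 9.13% against ATG7-/- cells. Their log2 difference from wild type was 1.61 (SE 0.19, limma adjusted p = 0.0222), where 0.049% of all genes passed as higher. In EVs the means were 99.4 ± 5.40 TPM in the wild type, 66.5 ± 9.58 in ATG7-/- and 70.3 ± 26.3 in ATG12-/- (SD, n = 3 each).

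Of 10 genes known to host other circular RNAs, 3 rose in EVs and 1 fell, with a median of 0.09, beside 7.66% higher, 36.4% lower and a median of -0.61 over all genes. HIPK3, host of an abundant circle of its second exon, had 10.5 ± 9.93 TPM in EVs and 1.11 ± 0.968 in cells (1.84, SE 0.51, limma adjusted p = 0.0097). FOXO3, a transcription factor gene, and HOMER1, a postsynaptic scaffold gene, rose by 0.89 and 1.36. RIMS2, of the presynaptic active zone, fell by 1.29. In the cell comparisons 8 of these genes were tested and none passed. Between ATG12-/- and ATG7-/- EVs, where 0.0468% of genes passed, no member of the 5 lists did.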

How the data were processed

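The authors deposited 1 table of TPM per transcript for 18 libraries. Salmon 0.14 and DESeq2 are listed, without a role, in the submitters' processing notes. Build, annotation and strand setting: not given in the sources used here. Per the labels' protocols, the stranded total RNA libraries had 22 PCR cycles and single-end reads of 50 bases.

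Transcripts were matched by identifier without version to GENCODE 29 (202941 of 203027, the other 86 holding at most 0.038% of a library) and summed to genes. Libraries were scaled by median of ratios. Genes reaching 1 TPM in 3 or more fitted libraries were tested on log2(TPM + 1), which understates changes of low genes, with limma 3.58.1 in R 4.3.3 (mean-variance trend, two-sided, Benjamini-Hochberg over all genes tested, threshold 0.05). Cell comparisons used the 9 cell libraries, EV comparisons the 9 EV libraries, and EVs against cells all 18. Because the values are not counts, no count test was run and no counting interval is given. Printed TPM are as deposited, and differences are of scaled values. Fits were tested on simulated data, where that of ATG7-/- against wild-type cells found almost none of the genes changed by 1 or 2 log2 units. The simulated spread was pooled over EV and cell libraries, so it need not match that of the cell libraries. A gene that did not pass between cell groups may still differ. No p, planned or not, of CDR1 or of its ratio to LINC00632 is printed where it would use the EVs on which CDR1 was picked.

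Members, lists and tests were chosen with earlier results of these data known. The text names the members, the genes most like them, the neighbours, and from each list every gene that passed a test of the report plus abundant examples, and some results under this rule are not reported here. Alternatives changed the pseudocount, filter, scaling, short and small RNA, variance model, replicate block and replicates.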

Additional observations from a re-analysis of the deposited data

How the results depend on the processing

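Of 227 recomputed values of the 15 comparisons of CDR1, LINC00632 and their ratio, 219 kept their direction. On unscaled TPM the difference of CDR1 in ATG7-/- EVs was 1.15 in place of 1.24. With 1 replicate left out at a time, 5 differences changed sign, in 8 fits: CDR1 in ATG7-/- against wild-type cells (-0.37 to 0.04; 0.04 without wild-type replicate 2), LINC00632 in the same comparison (-0.17 to 0.40; -0.01 without wild-type replicate 1, -0.17 without ATG7-/- replicate 3), LINC00632 in ATG12-/- against ATG7-/- EVs (-0.17 to 0.34; -0.17 without ATG7-/- replicate 3, -0.01 without ATG12-/- replicate 2), and, as descriptions, LINC00632 in ATG7-/- (-0.30 to 0.53) and ATG12-/- EVs (-0.19 to 0.64) against wild-type EVs, lowest without wild-type replicate 1. The log2 ratio ran from -0.68 to -0.40. The EV to cell difference of LINC00632 passed in every alternative run (1.67 to 2.04). That of CDR1 ran from 1.18 to 1.53, always with knockout EVs by which the gene was picked. Causes were not tested.

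Same-numbered samples did not deviate together (r from -0.034 to 0.048). The labels do not say whether same-numbered samples belong together, and a low r cannot exclude it. The main fits used no pairing. With the replicate block no call of either gene changed, and the EV to cell difference of the ratio stayed at -0.51.

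Counts of genes called ranged from 5 to 26 around 24 in ATG7-/- EVs, 3 to 27 around 18 in ATG12-/- EVs, 4 to 13 around 8 between these, 5 to 60 around 45 in ATG7-/- cells, 12 to 44 around 30 in ATG12-/- cells and 9 to 50 around 31 between these. Depth is unknown, and low values such as LINC00632-206 in cells limit what can be seen.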
